A study of Mus musculus with 50 samples.

Results

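The 10 genes described here encode proteins that fold, modify and crosslink collagen: Serpinh1, P4ha1, P4ha2, P4hb, Plod1, Plod2, Lox, Loxl1, Loxl2 and Fkbp10. They were found by symbol among the 52636 genes of the deposited count table, where all 10 were present with counts in every one of 50 mouse thyroid libraries. They were selected on measured values of these libraries: earlier results, among them the level of Serpinh1 at 5 days under aJ1aJ2 and RW, were in view when they were chosen. For that reason every comparison that uses the 5-day libraries is given as a description, without a p-value for any of the 10 genes. Counts of the 10 genes past the threshold there describe the values behind the choice, and nothing is read from them.

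The thyroids came from male C57BL/6 mice aged 10 to 14 weeks by the sample labels, or 10 to 12 weeks by the series description, with 5 mice in each of 10 groups. Every mouse received 1 intraperitoneal dose of antibody. The control antibody, against ragweed (RW), was given at 40 mg/kg. Ligand blockade (aJ1aJ2) combined antibodies against Jag1 and Jag2 at 20 mg/kg each, and receptor blockade (aN1aN2) combined antibodies against Notch1 at 5 mg/kg and Notch2 at 10 mg/kg. A triple combination (aN1aN2aN3) added an antibody against Notch3 at 20 mg/kg. RW, aJ1aJ2 and aN1aN2 were sampled after 15 hours and after 5 days. At 7 days there were 2 sets: RW with aJ1aJ2 in the first, and aJ1aJ2 with aN1aN2aN3 in the second, of which no RW library was analysed here. The series description also mentions daily thyroid hormone injections from day 2, and no label says which mice received them.

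Collagen chains enter the endoplasmic reticulum, where prolyl and lysyl residues are hydroxylated and the chains wind into a triple helix under the care of dedicated chaperones. After secretion, lysyl oxidases convert lysine and hydroxylysine residues into aldehydes that crosslink neighbouring molecules, which sets the stiffness of the matrix. In the thyroid, fibroblasts and vascular wall cells make most of the interstitial collagen, whereas the follicular epithelium secretes thyroglobulin through the same compartment and shares with collagen-making cells the general folding enzyme P4hb.

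Promoter windows of 5 of the 10 genes, from RefSeq (GRCm38.p6), were searched. The remaining genes had no match or lay on a chromosome left out of this search, a limit not applied to the share over all windows. The 250 bases before the start of 4 of them are shown because these 4 genes lay above the RW mean in all 5 aN1aN2 libraries at 15 hours, as described below. Capitals mark ACGTG, the core letters of the hypoxia response element, or TGGGAA, the core letters bound by the Notch partner RBPJ, each on either strand (CACGT and TTCCCA on the reverse).
Serpinh1, chr7:99353240-99353489, minus strand: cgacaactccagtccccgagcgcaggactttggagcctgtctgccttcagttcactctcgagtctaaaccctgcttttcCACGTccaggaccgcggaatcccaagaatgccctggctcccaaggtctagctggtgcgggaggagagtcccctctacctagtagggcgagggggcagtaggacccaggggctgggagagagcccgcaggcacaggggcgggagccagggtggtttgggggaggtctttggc
P4ha1, chr10:59323046-59323295, plus strand: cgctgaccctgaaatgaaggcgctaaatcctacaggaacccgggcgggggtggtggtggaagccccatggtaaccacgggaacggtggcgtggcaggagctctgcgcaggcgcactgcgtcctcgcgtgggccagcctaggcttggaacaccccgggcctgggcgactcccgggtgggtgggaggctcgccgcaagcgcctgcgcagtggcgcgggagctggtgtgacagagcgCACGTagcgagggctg
P4ha2, chr11:54100674-54100923, plus strand: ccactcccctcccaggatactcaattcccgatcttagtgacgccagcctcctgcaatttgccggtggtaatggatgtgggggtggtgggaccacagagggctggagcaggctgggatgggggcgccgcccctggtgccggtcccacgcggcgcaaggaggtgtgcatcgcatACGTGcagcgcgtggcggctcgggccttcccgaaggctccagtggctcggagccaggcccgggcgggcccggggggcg
Plod1, chr4:147936777-147937026, minus strand: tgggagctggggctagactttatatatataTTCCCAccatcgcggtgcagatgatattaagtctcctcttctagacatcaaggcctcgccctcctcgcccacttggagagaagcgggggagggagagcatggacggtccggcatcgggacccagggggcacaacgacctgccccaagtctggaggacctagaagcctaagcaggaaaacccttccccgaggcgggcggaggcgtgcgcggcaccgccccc
Both strands were searched for 4 motifs, which did not overlap one another here. ACGTG was found at 171 to 167 bases before the start of Serpinh1, at 16 to 12 bases before that of P4ha1, at 78 to 74 bases before that of P4ha2 and, in the promoter not printed, at 56 to 52 bases before the start of P4hb. It was not found in the window of Plod1. Over 32851 promoter windows of the same length, 16.6% hold these letters. The RBPJ core TGGGAA was found in Plod1, at 220 to 215 bases before the start, and in 21.6% of all windows. The heat shock core GAANNTTC, present in 6.69% of all windows, and the full endoplasmic reticulum stress element, present in 0.113%, had no match in the 5 windows. A match is a stretch of letters and not a measured binding site.

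Libraries held 15271242 to 52835846 counts. Thyroglobulin (Tg), the defining product of the follicular cell, took 0.450% to 42.4% of the counts of a library in the other groups and 1.15% to 6.50% in the second 7-day set, and none of the 10 follicular markers was at 0 in any group. Group medians of the Tg share lay at 21.9% to 38.3% in the other groups. In the second 7-day set they were 4.43% under aN1aN2aN3 and 1.72% under aJ1aJ2. That set thus held much less Tg RNA, and the cause was not tested. Libraries stood apart in tissue beside the gland. The summed level of 9 cartilage markers reached 1439 and 2502 CPM in aN1aN2 replicates 2 and 5 at 15 hours, and skeletal muscle markers took 14.0% of the counts of RW replicate 3 at 5 days. Of the cartilage markers, Matn3 was at 0 in aJ1aJ2 of the first 7-day set, and Matn3 and Matn1 were at 0 in aJ1aJ2 at 15 hours and in aN1aN2aN3. In bulk tissue, fewer cells of a type and less RNA per cell cannot be told apart. The labels hold nothing beyond the replicate numbers that ties mice of different groups together. Each p-value sets a difference against the spread between these samples.

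Levels below are CPM, counts relative to library sizes scaled by TMM over all 50 libraries, in replicate order 1 to 5, and they compare libraries for 1 gene. Levels between genes were ordered by the deposited FPKM, which is scaled to gene length. On that scale P4hb was the most abundant of the 10 genes in all 10 groups, with group medians of 40.9 to 80.1 FPKM. Serpinh1 came next in all 10 groups, at 3.48 to 24.2 FPKM. Loxl2 was the least abundant in all 10 groups, at 0.00436 to 0.146 FPKM. Between these, P4ha2, Plod1 and Fkbp10 took ranks 3 to 6, P4ha1 ranks 5 to 8, Lox ranks 4 to 9, Loxl1 ranks 6 to 9 and Plod2 ranks 8 to 9, so the order of those genes differed between groups. The deposited FPKM values were scaled in 2 separate blocks, 20 libraries (aN1aN2 at 15 hours and all 5-day groups) and the other 30, so ranks were taken within a group.

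Differences were tested with edgeR's quasi-likelihood test over all genes, with Benjamini-Hochberg adjustment over all genes tested and a threshold of 0.05. Each comparison against RW asks whether blocking Notch ligands or receptors alters expression in the adult gland. The triple combination was compared with ligand blockade and not with RW, so that comparison cannot say whether either blockade alters expression against control. In that comparison, rose and fell mean higher and lower under the triple combination than under ligand blockade. At 15 hours, 2 of the 10 genes were called under aN1aN2, both higher, and none under aJ1aJ2. These counts stand beside 1.68% of 18513 genes called under aN1aN2 and 0.573% under aJ1aJ2. Under aJ1aJ2, 1 of the 10 genes had an unadjusted p below 0.05, and DESeq2 called 0 of 10. The median log2 fold change of the 10 genes was 0.39 under aN1aN2, where that of all genes was 0.01, and -0.09 under aJ1aJ2, where that of all genes was -0.03.

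Serpinh1 (ENSMUSG00000070436) encodes HSP47, the chaperone that binds the collagen triple helix in the endoplasmic reticulum. At 15 hours its level was 128, 128, 107, 98.8 and 136 CPM in the RW libraries and 195, 251, 223, 209 and 239 CPM in the aN1aN2 libraries. Every aN1aN2 library lay above every RW library. This was a 1.86-fold rise, or 0.90 on the log2 scale (SE 0.13, n = 5 per group), with an edgeR adjusted p of 0.00386. Serpinh1 and Plod1 were the 2 members higher without overlap in this comparison, which 2.63% of all genes tested were. The aJ1aJ2 libraries at 15 hours held 124, 113, 82.6, 132 and 112 CPM of Serpinh1 and overlapped RW, with a log2 fold change of -0.09 (SE 0.13, edgeR adjusted p = 1.00).

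**Figure D1:**
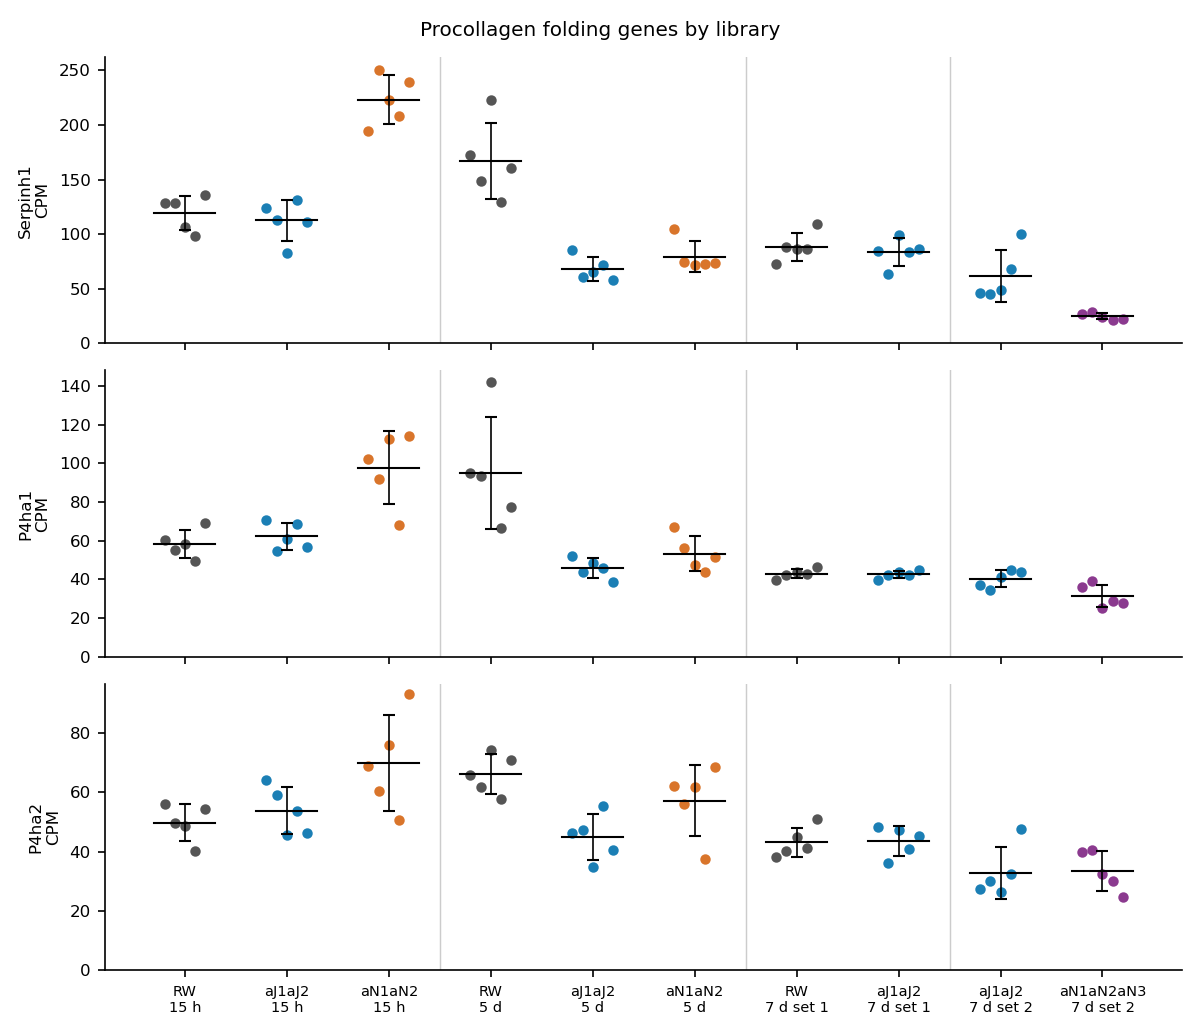
Expression of the chaperone Serpinh1 and the prolyl 4-hydroxylase genes P4ha1 and P4ha2 in each library (vertical axes, CPM, TMM-scaled), by group along the horizontal axis; points are single libraries (n = 5 per group), lines are group means and error bars the SD. For Serpinh1 the aN1aN2 libraries at 15 hours sit between 195 and 251 CPM, above the RW libraries at 98.8 to 136 CPM, and the aN1aN2aN3 libraries at 7 days sit between 21.8 and 29.1 CPM.

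The scaling of the deposited FPKM values places aN1aN2 at 15 hours in the same block as the 5-day libraries and RW at 15 hours in the other, so for aN1aN2 the antibodies and the block cannot be told apart. Cartilage marker sums varied within both groups and overlapped, at 13.1 to 295 CPM in RW and 22.0 to 2502 CPM in aN1aN2. The sum was high in aN1aN2 replicates 2 and 5 and, at 264 and 295 CPM, in RW replicates 2 and 5. Without those 4 libraries the fold change of Serpinh1 was as large, at 0.91 on the log2 scale, and the call was lost (edgeR adjusted p = 0.0664, with 3 libraries in each of these groups), an alternative added after seeing the data.

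At 5 days the order of the Serpinh1 levels was the other way round, given here as a description. The RW libraries held 172, 149, 223, 130 and 160 CPM, the aJ1aJ2 libraries 85.5, 60.8, 65.8, 71.6 and 58.2 CPM, and the aN1aN2 libraries 105, 74.3, 71.9, 73.1 and 73.6 CPM. All 10 libraries of the blocked groups lay below the lowest RW library. Serpinh1 was 2.46-fold lower under aJ1aJ2 (log2 fold change -1.30, SE 0.17), and its log2 fold change under aN1aN2 was -1.08. The 2 comparisons share their RW libraries.

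At 7 days in the first set Serpinh1 stood at 72.7, 88.7, 86.3, 86.0 and 109 CPM in RW and 84.6, 63.7, 99.1, 83.7 and 86.8 CPM in aJ1aJ2, and the groups overlapped. In the second set the aJ1aJ2 libraries held 46.2, 45.0, 48.6, 68.5 and 100.2 CPM and the aN1aN2aN3 libraries 26.5, 29.1, 24.6, 21.8 and 22.3 CPM. Every aN1aN2aN3 library was below every aJ1aJ2 library. Serpinh1 was 2.53-fold lower under aN1aN2aN3, a log2 fold change of -1.34 (SE 0.23, n = 5 per group, edgeR adjusted p = 0.00327). The spread within aJ1aJ2 was wide, and its replicates 4 and 5, the highest for Serpinh1, were also the highest for summed fibrillar collagens, at 238 and 418 CPM, and held 13.2% and 5.03% of counts from skeletal muscle markers. Without these 2 libraries the log2 fold change was -0.90 (edgeR adjusted p = 0.000726).

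P4ha1 and P4ha2 encode the catalytic alpha subunits of prolyl 4-hydroxylase, whose product 4-hydroxyproline stabilises the triple helix. P4ha1 (ENSMUSG00000019916) was present at 60.2, 55.0, 58.1, 49.4 and 69.0 CPM in RW at 15 hours and at 102, 91.7, 112, 68.3 and 114 CPM in aN1aN2. All 5 aN1aN2 libraries exceeded the RW mean, and only replicate 4 fell within the RW range. P4ha1 rose 1.67-fold (log2 fold change 0.74, SE 0.14, n = 5 per group, edgeR adjusted p = 0.0172). The call was lost without RW replicate 4 (adjusted p = 0.0545) and without the 4 libraries high in cartilage markers (log2 fold change 0.75, adjusted p = 0.157). In the aJ1aJ2 libraries at 15 hours P4ha1 ranged from 54.5 to 70.6 CPM, with a log2 fold change of 0.09 (SE 0.14).

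P4ha2 (ENSMUSG00000018906) ran from 40.1 to 56.1 CPM in RW at 15 hours and from 50.8 to 93.3 CPM in aN1aN2. Its log2 fold change of 0.49 (SE 0.16, n = 5 per group) did not pass the test (edgeR adjusted p = 0.150). At 5 days, as a description, P4ha1 stood at 66.6 to 142 CPM in RW, 38.5 to 52.1 CPM in aJ1aJ2 and 44.0 to 67.3 CPM in aN1aN2. The aJ1aJ2 libraries lay below all RW libraries, with a log2 fold change of -1.06 (SE 0.19), while aN1aN2 replicate 1 lay just above the lowest RW library. P4ha2 at 5 days was at 57.7 to 74.4 CPM in RW and 34.8 to 55.5 CPM in aJ1aJ2 (log2 fold change -0.57). Its aN1aN2 libraries, at 37.4 to 68.5 CPM, overlapped RW.

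At 7 days neither alpha subunit passed the test in either set. P4ha1 varied little in the first set, from 39.6 to 46.1 CPM in RW and from 39.9 to 44.9 CPM in aJ1aJ2. In the second set it was at 34.7 to 44.8 CPM under aJ1aJ2 and 25.2 to 39.2 CPM under aN1aN2aN3, a log2 fold change of -0.39 (SE 0.16, n = 5 per group, edgeR adjusted p = 0.102). P4ha2 in that set had a log2 fold change of -0.00, with aJ1aJ2 libraries at 26.3 to 47.6 CPM and aN1aN2aN3 libraries at 24.7 to 40.4 CPM.

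P4hb (ENSMUSG00000025130) encodes protein disulfide isomerase, which serves as the beta subunit of prolyl 4-hydroxylase and also forms disulfide bonds in secreted proteins at large. It was at 1034, 702, 1091, 981 and 736 CPM in RW at 15 hours and at 827, 668, 697, 963 and 964 CPM in aN1aN2. The groups overlapped, and the log2 fold change was -0.14 (SE 0.22, n = 5 per group, edgeR adjusted p = 0.824). In the second 7-day set P4hb lay at 394 to 547 CPM under aJ1aJ2 and 404 to 574 CPM under aN1aN2aN3, a log2 fold change of 0.05. P4hb at 5 days was at 383 to 1166 CPM in RW, 312 to 702 CPM in aJ1aJ2 and 401 to 798 CPM in aN1aN2, and the groups overlapped.

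Plod1 and Plod2 encode lysyl hydroxylases, which prepare lysines for crosslinking. Plod1 acts mainly on the helical part of the chain and Plod2 on its telopeptides. Plod1 (ENSMUSG00000019055) was at 52.5, 54.8, 57.5, 54.7 and 59.8 CPM in RW at 15 hours and at 72.4, 65.7, 82.4, 66.2 and 69.4 CPM in aN1aN2. The groups did not overlap. The log2 fold change of 0.35 (SE 0.09, n = 5 per group) nevertheless missed the threshold (edgeR adjusted p = 0.0711), which DESeq2 passed (adjusted p = 0.00900). In the second 7-day set Plod1 stood at 17.4 to 42.1 CPM in aJ1aJ2 and 17.3 to 33.3 CPM in aN1aN2aN3, against 44.5 to 61.6 CPM in the first set. The sets were not compared by a test.

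Plod2 ranged from 9.70 to 59.6 CPM over the 50 libraries, and no treatment passed the test in any comparison. Its widest group was aN1aN2 at 15 hours, with 41.2, 39.6, 33.0, 25.1 and 59.6 CPM, against 27.9, 31.4, 30.2, 30.8 and 25.6 CPM in RW. The log2 fold change there was 0.44 (SE 0.19, n = 5 per group, edgeR adjusted p = 0.308). Exons of Plod2 overlap those of Gm38391 on the opposite strand (mean 3.44 CPM), and the use of strand in counting is not given in the sources used here, so part of its counts may belong to that gene.

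Lox, Loxl1 and Loxl2 encode secreted copper-dependent amine oxidases. Lox acts on collagen and elastin, Loxl1 is known chiefly for elastic fibres, and Loxl2 acts on collagen of basement membranes among other substrates. At 15 hours Lox was at 8.16, 13.1, 5.88, 5.43 and 17.0 CPM in RW and at 8.42, 52.4, 7.47, 7.91 and 72.2 CPM in aN1aN2. The high aN1aN2 libraries, replicates 2 and 5, were the same that held 1439 and 2502 CPM of cartilage markers and 3081 and 9818 CPM of airway epithelial markers, while the other 3 lay within the RW range. RW replicate 5, with the highest Lox of its group, held 295 CPM of cartilage and 8035 CPM of airway markers. The log2 fold change of 1.58 (SE 0.63, n = 5 per group) did not pass the test (edgeR adjusted p = 0.259), and without the 4 libraries high in cartilage markers it was 0.29. At 5 days aN1aN2 replicate 1 had both 1339 CPM of cartilage markers and 32.3 CPM of Lox, above the other 4 libraries of its group at 8.25 to 20.5 CPM. The part of cartilage in the 5-day Lox levels was not tested.

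**Figure D2:**
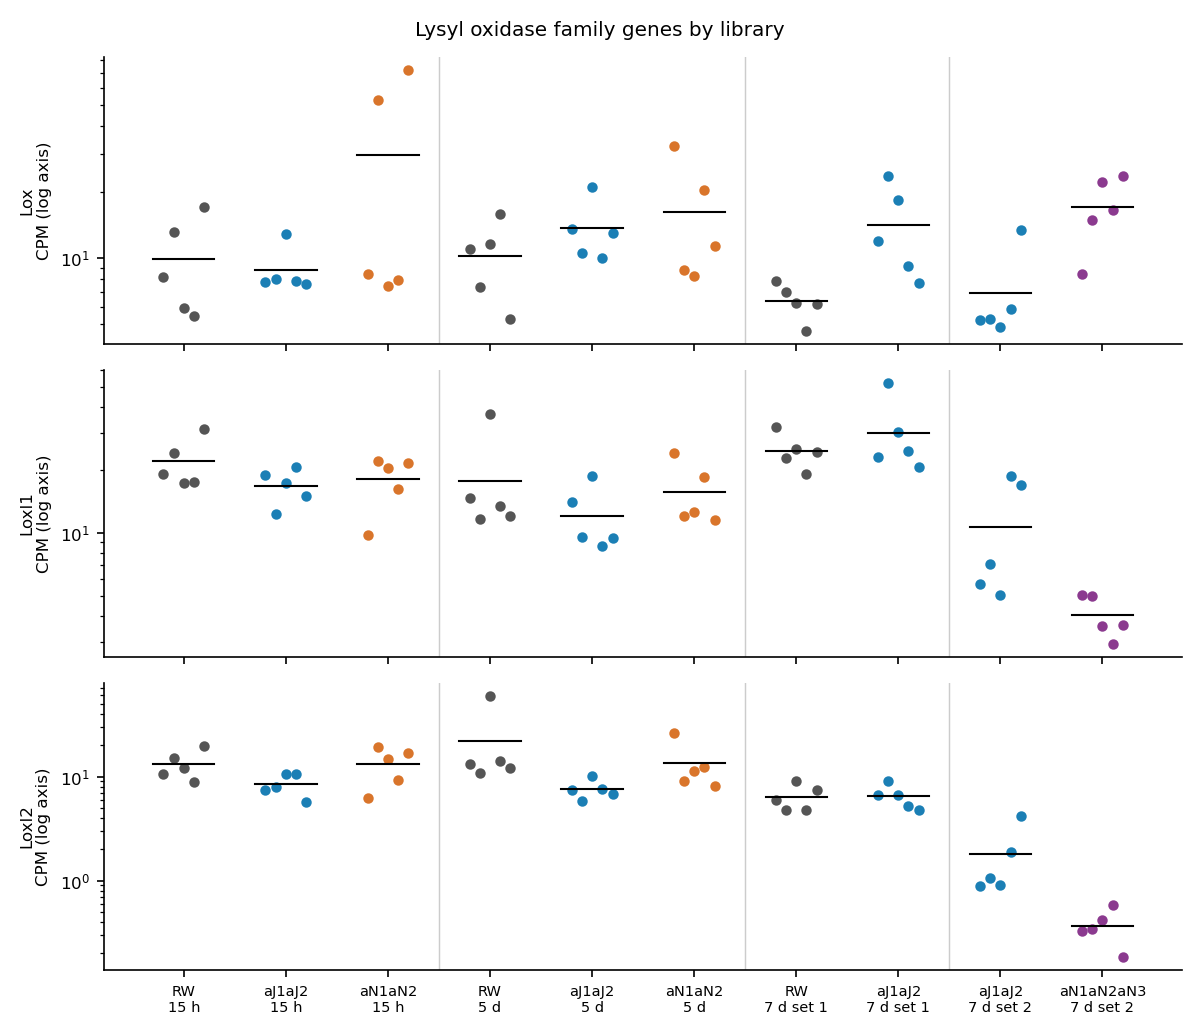
Expression of the lysyl oxidase genes Lox, Loxl1 and Loxl2 in each library (CPM, TMM-scaled, log axis), by group; points are single libraries (n = 5 per group) and lines are group means. Lox reaches 52.4 and 72.2 CPM in 2 aN1aN2 libraries at 15 hours, and Loxl2 lies below 1 CPM in all 5 aN1aN2aN3 libraries at 7 days.

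In the first 7-day set Lox was at 7.83, 7.03, 6.24, 4.62 and 6.14 CPM in RW and at 12.0, 23.6, 18.3, 9.20 and 7.71 CPM in aJ1aJ2. All 5 aJ1aJ2 libraries were above the RW mean, and replicate 5 overlapped RW. The log2 fold change was 1.15 (SE 0.30, n = 5 per group). It did not pass edgeR (adjusted p = 0.186), which called 0 of 16954 genes in this comparison (0%) with 1968 at an unadjusted p below 0.05. DESeq2 called 476 genes there, Lox among them (adjusted p = 0.0176). The aJ1aJ2 effect on Lox at 7 days minus that at 15 hours was 1.28 (SE 0.44, edgeR adjusted p = 0.248).

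In the second 7-day set the 3 oxidase genes differed in both directions between the triple combination and ligand blockade. Lox was at 5.21, 5.24, 4.84, 5.85 and 13.4 CPM under aJ1aJ2 and at 8.45, 14.9, 22.1, 16.5 and 23.8 CPM under aN1aN2aN3. It rose 2.43-fold, a log2 fold change of 1.28 (SE 0.34, n = 5 per group, edgeR adjusted p = 0.0227), with 1 aJ1aJ2 library inside the aN1aN2aN3 range. The Lox call was lost without aN1aN2aN3 replicate 3 or 5 (adjusted p = 0.0603 each) or aJ1aJ2 replicate 1 (0.0534) or 3 (0.0528), and without aJ1aJ2 replicates 4 and 5 together the log2 fold change was 1.75 (adjusted p = 0.00203).

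Loxl1 went the other way in the second set, from 5.70, 7.10, 5.03, 18.7 and 16.9 CPM under aJ1aJ2 to 5.02, 4.95, 3.57, 2.93 and 3.63 CPM under aN1aN2aN3. The lowest aJ1aJ2 and the highest aN1aN2aN3 library were almost level, and they overlapped when the 10 libraries of this set were scaled on their own. The log2 fold change was -1.44 (SE 0.39, n = 5 per group, edgeR adjusted p = 0.0233). Leaving out aJ1aJ2 replicates 4 and 5, the libraries with most fibrillar collagen RNA, brought it to -0.56 and ended the call (adjusted p = 0.0853). It was also lost without aN1aN2aN3 replicate 3, 4 or 5 (adjusted p = 0.0614, 0.0573 and 0.0598).

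Loxl2 had the largest fold change of the 10 genes in that set. Its level was 0.880, 1.07, 0.904, 1.90 and 4.21 CPM under aJ1aJ2, from 27, 23, 23, 36 and 84 counts. The aN1aN2aN3 libraries held 0.326, 0.346, 0.418, 0.580 and 0.185 CPM, from 10, 10, 13, 19 and 5 counts. The groups did not overlap, and Loxl2 was 4.82-fold lower (log2 fold change -2.27, SE 0.50, n = 5 per group, edgeR adjusted p = 0.0104). Without aJ1aJ2 replicates 4 and 5 the log2 fold change was -1.33 (adjusted p = 0.0220).

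Loxl1 and Loxl2 at the earlier times varied with single libraries. At 5 days RW replicate 3, the library with 14.0% muscle counts and 0.450% Tg, held 59.8 CPM of Loxl2, where the other 4 RW libraries held 10.8 to 14.2 CPM. It also held 37.0 CPM of Loxl1 and 2053 CPM of summed fibrillar collagens, the most of its group. As a description, Loxl2 had a log2 fold change of -1.54 (SE 0.49) under aJ1aJ2 at 5 days, and of -0.87 when the 4 libraries richest in muscle were left out. At 15 hours both genes lay below the RW mean in all 5 aJ1aJ2 libraries, at 5.74 to 10.6 CPM for Loxl2 against 8.91 to 19.7 CPM in RW. Neither passed the test (log2 fold change -0.65, SE 0.30, edgeR adjusted p = 0.752 for Loxl2, with n = 5 per group). Exons of Loxl2 overlap those of Mir6950 and Gm27177, which averaged 0 and 0.00195 CPM. Those of Lox overlap AC161119.1 on the opposite strand, a transcript not analysed here, and its share of the Lox counts is unknown.

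Fkbp10 encodes FKBP65, a prolyl isomerase of the endoplasmic reticulum that works with HSP47 and Plod2 on procollagen. It was at 8.34, 14.0, 5.94, 8.75 and 14.3 CPM under aJ1aJ2 in the second 7-day set and at 18.1, 33.0, 26.1, 18.2 and 26.1 CPM under aN1aN2aN3. The groups did not overlap, and Fkbp10 rose 2.32-fold (log2 fold change 1.21, SE 0.27, n = 5 per group, edgeR adjusted p = 0.0101). Fkbp10 shares exon sequence with Nt5c3b on the opposite strand, which was more abundant (mean 35.9 CPM) and had a log2 fold change of 0.22 (SE 0.26, edgeR adjusted p = 0.573) in this comparison. In the first set, where aJ1aJ2 was set against RW, Fkbp10 was at 21.1, 20.9, 19.9, 21.3 and 22.2 CPM in RW and 15.0, 15.6, 17.9, 18.8 and 18.0 CPM in aJ1aJ2. The aJ1aJ2 group was the lower in both sets, but against RW in the first and aN1aN2aN3 in the second. The sets therefore do not repeat the same comparison. The groups of the first set did not overlap, but the log2 fold change of -0.30 (SE 0.10, n = 5 per group) did not pass the test (edgeR adjusted p = 0.254). At 15 hours the log2 fold change of Fkbp10 under aJ1aJ2 against RW was -0.09 (SE 0.18), and the groups overlapped. At 5 days, as a description, it was 0.29, with all 5 aJ1aJ2 libraries above the RW mean.

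Over the 10 genes, the second 7-day set had 5 calls, 3 lower (Serpinh1, Loxl1, Loxl2) and 2 higher (Lox, Fkbp10), in a comparison that called 19.6% of 18450 genes. Serpinh1 and Loxl2 were lower without overlap, as 7.14% of all genes were, and Fkbp10 was higher without overlap, as 7.84% of all genes were. The median log2 fold change of the 10 genes was -0.12, beside -0.07 over all genes. In the first set no member was called, 3 had an unadjusted p below 0.05, and DESeq2 called 1. Fkbp10 was the member lower without overlap there, which 2.02% of all genes were, and the median of the 10 was -0.00.

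The counts of the 5-day comparisons, which were in view when the genes were selected, are a description and no evidence about the family: 2 of the 10 were called under aJ1aJ2 (0.179% of 18434 genes) and 0 under aN1aN2 (0% of all genes, with 1848 at an unadjusted p below 0.05 and 463 called by DESeq2). Under aN1aN2 the same counts for the members were 3 and 2. Lower without overlap were 4 members under aJ1aJ2 (Serpinh1, P4ha1, P4ha2 and Loxl2), where 2.1% of all genes were, and Serpinh1 alone under aN1aN2, where 1.23% were. The contrast of the aJ1aJ2 effect at 5 days minus that at 15 hours rests on the same libraries, and its 1 member past the threshold was Serpinh1, the gene in view at the choice, beside 0.135% of all genes. The corresponding contrast for 7 days called 0 of 10 members, with 1 at an unadjusted p below 0.05 and 0 by DESeq2, beside 0.314% of all genes.

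**Figure D3:**
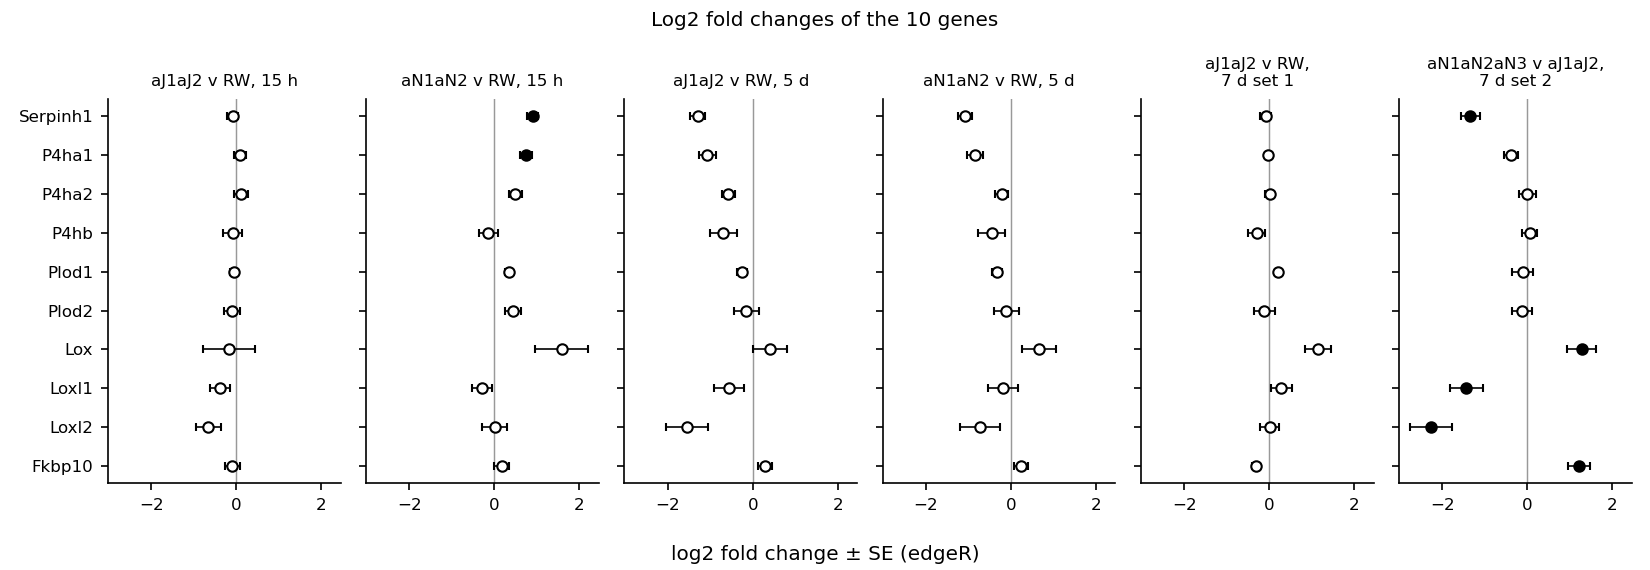
Log2 fold change with SE of each of the 10 genes in 6 comparisons (n = 5 libraries per group); filled points passed edgeR's test at an adjusted p below 0.05, and the 5-day comparisons are drawn open because no test is given for them. Filled points are Serpinh1 and P4ha1 under aN1aN2 at 15 hours, and Serpinh1, Lox, Loxl1, Loxl2 and Fkbp10 in the second 7-day set.

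The substrates and partners of these enzymes came from lists chosen with earlier results known, so they are described by counts. At 15 hours under aJ1aJ2 none of the 11 fibrillar collagen genes was called and all 11 had a fold change below 0, with a median of -0.76 against -0.03 over all genes. The lowest values were those of Col2a1 (-6.50), Col11a2 (-2.33), Col27a1 (-2.29) and Col11a1 (-1.56), most of them collagens of cartilage, and the 9 cartilage markers summed to 13.1 to 295 CPM in RW and 11.7 to 18.0 CPM in aJ1aJ2, where Matn1 and Matn3 were at 0. Under aN1aN2 at 15 hours the median was 0.41 and again none was called. The highest values were again those of cartilage collagens, Col2a1 (2.98) and Col11a1 (1.94), and the cartilage markers, none at 0, summed to 22.0 to 2502 CPM in aN1aN2. Col2a1 and Col11a1 are themselves among the 9 cartilage markers, and the part of cartilage in these medians was not tested. Col3a1, a main collagen of loose connective tissue, had a log2 fold change of 0.01 there (edgeR adjusted p = 0.992). Of 17 further enzymes of collagen folding and crosslinking none was called at 15 hours in either comparison. The genes of highest level in lists without a call were Fkbp9 (log2 fold change 0.19, edgeR adjusted p = 0.492 under aN1aN2), the collagen chaperone Sparc (0.70, 0.285), the elastic matrix gene Ltbp4 (-0.43, 0.390) and the general chaperone Hspa5 (0.27, 0.790). Under aJ1aJ2 at 15 hours Sparc was at -0.22, Ltbp4 at -0.67, Hspa5 at 0.16 and the TGF-beta response gene Ccn2 at 1.68 (adjusted p = 0.369). In the first 7-day set no gene of any of these lists was called, and Col3a1 had a log2 fold change of -0.77 (SE 0.20, adjusted p = 0.186). The 1 gene called over all these lists at 15 hours was Smad7, an inhibitor of TGF-beta signalling, which fell under aN1aN2 (log2 fold change -0.76, SE 0.17, edgeR adjusted p = 0.0398).

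The comparison in the second 7-day set called 19.6% of 18450 genes, 1696 higher and 1918 lower. The list counts here and in the next paragraph stand beside that share, and a count near it is no result about a list. In this set, 3 of 9 tested fibrillar collagen genes were lower and none higher: Col27a1 (log2 fold change -3.26, edgeR adjusted p = 0.0324), Col3a1 (-2.67, 0.0149) and Col5a2 (-1.36, 0.0336). All 9 had fold changes below 0. Of 11 other collagens 4 fell, led by Col15a1 (-2.75, edgeR adjusted p = 0.00362) and Col6a3 (-2.44, 0.0109). The propeptide processing enhancers Pcolce (-2.04, adjusted p = 0.00340) and Pcolce2 (-1.64, 0.00901) fell, as 2 of 12 genes of secretion and processing. Among the 17 further folding enzymes the isomerases Fkbp7 (-0.67, edgeR adjusted p = 0.0500 after rounding) and Fkbp14 (-0.51, adjusted p = 0.0496) fell, and P3h4, a partner of the lysyl hydroxylase complex, rose (0.67, adjusted p = 0.0190). The microfibril genes Mfap5 (-2.04), Mfap4 (-1.84) and Fbn1 (-1.50) fell, 3 of 10 elastic fibre genes. Of 16 general chaperones of the endoplasmic reticulum 11 fell, among them Sdf2l1 (-2.70, edgeR adjusted p = 0.00031), Manf (-2.18, 0.000759) and Hsp90b1 (-1.59, 0.00362).

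Hypoxia-induced genes outside the family were called in both directions in that set, 4 of 16 higher and 4 lower. Ndrg1 rose (log2 fold change 1.66), while Egln1 (-2.10) and Ldha (-1.55) fell. None of 11 TGF-beta response genes was called. Some markers of cell types also differed between these groups. The 8 fibroblast markers, none at 0, summed to 430 to 1102 CPM under aN1aN2aN3 and 979 to 2426 CPM under aJ1aJ2, with 5 of 8 called lower. These markers include Col1a1 and also Col3a1 and Mfap5, already given above as lower. The fibroblast list is therefore not separate from the collagen and elastic fibre lists. The 6 adipocyte markers, none at 0, summed to 183 to 883 CPM and 2212 to 2457 CPM, with 3 of 6 called lower. The 5 macrophage markers had 2 genes called lower, Mrc1 and Adgre1, and the 8 pericyte and smooth muscle markers also had 2, Cspg4 and Rgs5. Other sums were higher under aN1aN2aN3 without overlap: the 5 C cell markers at 20820 to 34830 CPM against 6900 to 17800 CPM, with 1 called higher, and the 6 endothelial markers at 236 to 310 CPM against 143 to 227 CPM, with 3 called higher and 1 lower. Tg took 3.73% to 6.50% of counts under aN1aN2aN3 and 1.15% to 2.82% under aJ1aJ2. The 16 chaperones summed to 3363 to 3592 CPM under aN1aN2aN3 and 4350 to 9840 CPM under aJ1aJ2. The part of these shifts in the enzyme levels was not tested.

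**Figure D4:**
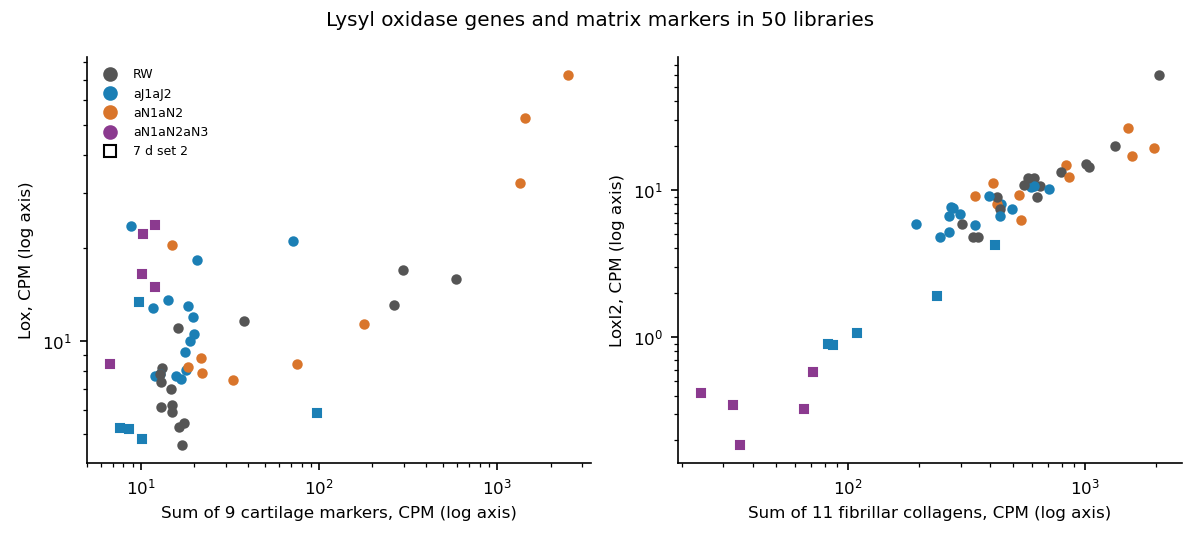
Lox against the summed level of 9 cartilage markers (left) and Loxl2 against the summed level of 11 fibrillar collagens (right), all in CPM on log axes; each point is 1 of 50 libraries, coloured by antibody, with squares for the second 7-day set. The 2 aN1aN2 libraries at 15 hours with 1439 and 2502 CPM of cartilage markers are those with 52.4 and 72.2 CPM of Lox.

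At 5 days, again as a description, all 16 general chaperones had fold changes below 0 under both treatments, with medians of -1.49 under aJ1aJ2 and -1.04 under aN1aN2. Their summed level was 2631 to 23460 CPM in RW (median 18150), 2045 to 6660 CPM in aJ1aJ2 and 3652 to 10540 CPM in aN1aN2. All 11 fibrillar collagens were below 0 under aJ1aJ2 as well, with a median of -1.22. Muscle-rich libraries occurred in all 3 groups at that time: RW replicate 3, aJ1aJ2 replicate 3 and aN1aN2 replicates 1 and 4. Without them the log2 fold change of Serpinh1 was -1.16 under aJ1aJ2 and -1.08 under aN1aN2, and that of P4ha1 -0.90 and -0.71.

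Within groups the 10 genes did not all vary together. Over 50 libraries, with each group's mean removed, the 45 pairs had Pearson correlations of log2 CPM from -0.656 (Loxl1 with Plod2) to 0.791 (Loxl1 with Loxl2), with a median of 0.340, and 14 pairs exceeded 0.5. These are descriptions, since libraries share admixed tissue and depth. Serpinh1 followed the mean of the other members most closely (0.757), then P4ha2 (0.718) and Plod1 (0.664), whereas the values for P4hb (-0.004) and Plod2 (-0.043) were close to 0. P4hb and Plod2 correlated with each other at 0.657. Outside the family, among 21546 genes, the patterns most like the mean of the members over the 50 libraries were those of Sgsm3 (0.796), Fkbp9 (0.784), Olfml3 (0.771), F8a (0.764) and Tmem63a (0.749).

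**Figure D5:**
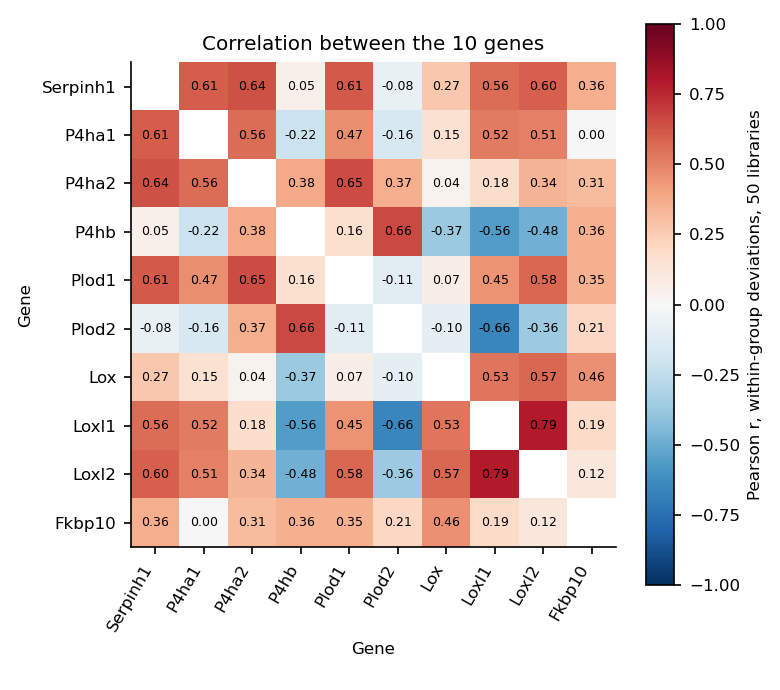
Pearson correlation of log2 CPM between each pair of the 10 genes over 50 libraries after removal of group means (colour scale from -1 to 1). Loxl1 and Loxl2 form the pair with the highest value (0.791) and Loxl1 and Plod2 that with the lowest (-0.656).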

How the data were processed

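RNA of 50 thyroid libraries was sequenced as single-end reads of 50 bases on an Illumina instrument, per the labels' protocols. The deposited values are raw read counts for each gene, in whole numbers, and FPKM, which the authors scaled by length and depth. The submitters' processing notes name GSNAP and limma without a role or version. The counting program, genome build, annotation and use of strand were not given in the sources used here. All columns matched 1 library each by title, and 0 did not. Symbols were matched by Ensembl ID to GENCODE M21 for 52403 of 52636 genes.

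The counts entered the quasi-likelihood test of edgeR 4.0.16 under R 4.3.3, two-sided and robust, after TMM scaling. Genes were kept by filterByExpr (count at least 10, total at least 15). Groups of one time, or of one 7-day set, were fitted together, with p-values adjusted over all genes tested (Benjamini-Hochberg, 0.05). Standard errors come from the F statistic. The script was tested on simulated data. Alternatives were DESeq2 1.42.0, other scalings, no filter, a replicate block, a muscle covariate, 2-group fits and libraries left out. Replicates were checked for duplicates: over 100 pairs the lowest chi-square per degree of freedom was 15.6, so each library was counted separately.

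The 10 genes, the lists (8 pathway lists beside the members, and markers of 13 cell types or states) and the tests were chosen with earlier results of these data known. The rule for named genes was all members, up to 3 called genes with the largest fold change per pathway list and, where none was called, the gene of highest mean CPM, of which the text gives a part. The 5 genes most like the members were chosen by Pearson correlation over 50 libraries. Promoter sequences are from RefSeq (GRCm38.p6). No protein sequence was used here.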

Additional observations from a re-analysis of the deposited data

Results flagged for a closer look

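In 7 of 100 sets of 5 libraries (10 genes in 10 groups) 1 library lay far from the other 4 by Dixon's criterion, which chance gives in about 1 in 20. Serpinh1 stood at 104.9 CPM in aN1aN2 replicate 1 at 5 days, with the next library at 74.31 CPM. That library also held 26.14 CPM of Loxl2, with the next at 12.3 CPM, and it is 1 of the libraries high in muscle and cartilage markers. RW replicate 3 at 5 days held 36.99 CPM of Loxl1 and 59.81 CPM of Loxl2, where the next RW libraries held 14.64 and 14.24 CPM. Replicate 5 of aJ1aJ2 in the second 7-day set held 47.6 CPM of P4ha2 and 13.38 CPM of Lox, with the next at 32.48 and 5.853 CPM. Lox reached 12.83 CPM in aJ1aJ2 replicate 3 at 15 hours, above 8.042 CPM in the next.

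The effect of aJ1aJ2 on Serpinh1 at 5 days minus that at 15 hours was -1.2239 on the log2 scale, given as a description because the 5-day values were in view when the genes were selected. Under aN1aN2 every library lay above the RW mean at 15 hours and below it at 5 days for 3 genes. The log2 fold changes were 0.89869 and -1.081 for Serpinh1, 0.7428 and -0.84828 for P4ha1, and 0.34767 and -0.33741 for Plod1, and the differences between times were not tested. The aN1aN2 libraries at 15 hours belong to another FPKM scaling block than RW at that time, while all 5-day groups share a block. The change of sign therefore cannot be told apart from the block. In the same sense aJ1aJ2 had opposite signs at 5 days and at 7 days in the first set for Plod1 (-0.25935 and 0.21819) and for Fkbp10 (0.28632 and -0.30479), and those differences were not tested.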

How the results depend on the processing

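Over the alternatives, 511 of 570 fold changes of the 10 genes kept direction and side of the threshold, 13 lost and 19 gained a call, and 27 changed sign. None of those 27 was called, and their largest log2 fold change was 0.662. The cause of each change was not tested unless the construction of the alternative gives it. The 4 cartilage-rich libraries at 15 hours, the 4 muscle-rich libraries at 5 days and aJ1aJ2 replicates 4 and 5 of the second set were left out as alternatives chosen after seeing the data.

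The number of members called under aN1aN2 at 15 hours went from 2 to 0 without the cartilage-rich libraries, which also leaves fewer samples, and to 3 with DESeq2. The 5-day counts are a description, since those values were in view at the choice of the genes. Under aJ1aJ2 at 5 days the count went from 2 to 1 with total counts, 1 with no filter, 0 with the replicate block, 0 in a fit of its 2 groups, 3 with DESeq2, and 5 with either the muscle covariate or the muscle-rich libraries left out. Under aN1aN2 at 5 days it went from 0 to 2 with DESeq2, 2 with the muscle covariate and 2 without the muscle-rich libraries. In the first 7-day set it went from 0 to 1 with DESeq2. For the aJ1aJ2 effect at 5 days minus 15 hours it went from 1 to 0 with total counts, 3 with DESeq2, 0 with no filter, 0 with the replicate block and 2 with the muscle covariate.

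Same-numbered libraries of 2 groups correlated in their deviations at -0.585 to 0.719, and in no pair of groups did all 5 exceed 0.1, so the replicate numbers were not taken to pair the mice. In 2 pairs of groups 4 of 5 exceeded 0.1: RW with aN1aN2 at 15 hours (-0.087 to 0.719) and RW with aJ1aJ2 at 5 days (-0.131 to 0.644). A link between same-numbered mice in those groups is therefore not excluded. With the replicate block, Loxl1 in the second set was at -1.24 (edgeR adjusted p = 0.0946), and calls over all genes went from 106 to 36 (aJ1aJ2 at 15 hours), 311 to 186 (aN1aN2 at 15 hours), 33 to 1 (aJ1aJ2 at 5 days) and 3614 to 2100 (second set). DESeq2 called 312, 935, 477 and 4941 genes there, and total counts moved the median log2 fold change of all genes under aJ1aJ2 at 5 days from -0.06 to 0.16. Reversed fold changes, none of them called, were these. For aJ1aJ2 at 15 hours, Serpinh1 was at 0.02614 with the cartilage-rich libraries left out, Lox was at 0.1336 with the replicate block and 0.4413 with the cartilage-rich libraries left out. For aN1aN2 at 15 hours, Loxl2 was at -0.04434 with the replicate block, -0.1254 with the muscle covariate and -0.06158 with the cartilage-rich libraries left out, Fkbp10 was at -0.158 with the cartilage-rich libraries left out. For aN1aN2 at 5 days, Plod2 was at 0.1509 with the muscle covariate, Lox was at -0.0778 with the muscle-rich libraries left out, Loxl1 was at 0.09871 with total counts. For aJ1aJ2 in the first 7-day set, Serpinh1 was at 0.05164 with the muscle covariate, P4ha2 was at -0.08685 with total counts, Plod2 was at 0.15 with the muscle covariate, Loxl2 was at -0.1059 with total counts and -0.1246 with the muscle covariate. For the second 7-day set, P4ha2 was at 0.00819 with RLE size factors, 0.1164 with total counts, 0.02148 with DESeq2, 0.05344 with no filter, 0.01338 with the replicate block and 0.2643 with aJ1aJ2 replicates 4 and 5 left out, Plod1 was at 0.02121 with total counts and 0.2361 with aJ1aJ2 replicates 4 and 5 left out. For the aJ1aJ2 effect at 7 days minus 15 hours, Serpinh1 was at 0.04705 with the muscle covariate, Plod2 was at 0.1204 with the muscle covariate. For the aJ1aJ2 effect at 5 days minus 15 hours, Plod2 was at 0.06307 with total counts, Loxl1 was at 0.1183 with total counts.

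With 1 library left out, members called ranged from 1 to 3 for aN1aN2 at 15 hours, 0 to 2 for aJ1aJ2 at 5 days, 0 to 1 for aN1aN2 at 5 days, 3 to 5 in the second set and 0 to 2 for the effect at 5 days minus 15 hours, and stayed at 0 in the other 3. The counts that use the 5-day libraries are a description and say nothing on stability, since those values were in view at the choice of the genes. The adjusted p of Serpinh1 ran from 0.00106 to 0.0144 under aN1aN2 at 15 hours and from 0.00234 to 0.0121 in the second set. Plod1 under aN1aN2 at 15 hours gained a call without aJ1aJ2 replicate 3 (adjusted p = 0.0418) and with the muscle covariate (0.0491). Fold changes that changed sign with 1 library left out had an absolute value of at most 0.729. For aJ1aJ2 at 15 hours the ranges were Fkbp10 -0.1283 to 0.04346, Lox -0.3122 to 0.133, P4hb -0.1455 to 0.09755, Plod1 -0.08559 to 0.02533, Serpinh1 -0.125 to 0.03779. For aJ1aJ2 in the first 7-day set the ranges were Loxl1 -0.008441 to 0.3987, Loxl2 -0.1374 to 0.1678, P4ha1 -0.04365 to 0.01615, P4ha2 -0.02736 to 0.08293, Plod2 -0.2558 to 0.05502, Serpinh1 -0.1558 to 0.004624. For the aJ1aJ2 effect at 5 days minus 15 hours the ranges were Loxl1 -0.408 to 0.2389, Plod2 -0.2673 to 0.09278. For aN1aN2 at 5 days the ranges were Loxl1 -0.3944 to 0.2739, Loxl2 -1.133 to 0.08004, Plod2 -0.2718 to 0.009218. For aN1aN2 at 15 hours the ranges were Loxl2 -0.1673 to 0.1961. For the second 7-day set the ranges were P4ha2 -0.07496 to 0.1706, Plod1 -0.2371 to 0.114, Plod2 -0.2892 to 0.02136. For aJ1aJ2 at 5 days the ranges were Plod2 -0.3316 to 0.02587. For the aJ1aJ2 effect at 7 days minus 15 hours the ranges were Plod2 -0.192 to 0.1573, Serpinh1 -0.1379 to 0.08699. Loxl2 in the second set rests on 5 to 19 counts per aN1aN2aN3 library, and its log2 fold change ran from -2.479 to -1.675 with 1 library left out.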
